A study of Mus musculus with 7 samples.

Results

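The enzymes that write and erase DNA methylation, and the core of the polycomb repressive complex PRC2, were followed in CD8+ T cells after contact with leukemia-derived vesicles. These are 10 genes of the 55367 in the count table, chosen by symbol: Dnmt1, Uhrf1, Dnmt3a, Dnmt3b, Tet1, Tet2, Tet3, Ezh2, Eed, and Suz12. All 10 were detected in each of the 7 libraries and passed the filter on low counts, which 12623 genes passed. CD8+ T cells were sorted from spleens of mice of the strain Foxp3 YFP/cre, which the labels describe as healthy, and this background was shared by all libraries. The cells then received small extracellular vesicles (sEVs) for 48 hours, at 100 μg/ml in both groups by the labels. The study's methods speak instead of a physiologic amount, set by the respective spleen. The study recovered more sEV protein per gram from leukemic than from healthy spleens. If the dose followed the methods, it differed between the groups, and dose and vesicle source cannot be told apart. Those methods describe culture of CD8+ T cells in wells coated with anti-CD3, with CD28 antibody and IL2. They name no difference in this stimulation between the groups, so the cells are read as activated and not as resting. LME-sEVs were purified from spleens of leukemic Eμ-TCL1 mice, in which the Eμ enhancer drives a TCL1 transgene in B cells, and 3 libraries come from cells given them. HCME-sEVs came from spleens of healthy mice, and 4 libraries come from cells given those. These group sizes and the direction of every fold change follow the labels, whereas the study's text gives the group sizes the other way round in one place. Both kinds of vesicle come from whole spleens, so they stem from all cells of that organ and not from B cells alone. No age is given in the labels, and no library of cells without vesicles was analysed here.

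DNA methylation in mammals sits mainly on cytosines followed by guanine. DNMT3A and DNMT3B place it on unmethylated DNA, DNMT1 copies it to the new strand after replication with the help of UHRF1, and the TET dioxygenases oxidize it, which opens the way to its removal. PRC2, built from EZH2 (or EZH1), EED, and SUZ12, methylates histone H3 at K27, a mark of silenced genes that PRC1 reads. In CD8+ T cells these systems are known for silencing naive and memory genes during effector differentiation, and for fixing the exhausted state. RNA levels of the enzymes were measured here, and neither DNA methylation nor H3K27 methylation was.

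Libraries held 3689831 to 5030522 counts, and a floor of 3 counts equals 0.580 to 0.804 CPM (counts scaled to a common library size after TMM, a correction for library composition). The 10 genes together took 0.169% to 0.196% of the counts of a library. Libraries within a group varied beyond counting noise, the chi-square divided by its degrees of freedom being 2.19 to 6.66. The labels do not say whether the libraries came from separate animals or cultures, so p-values measure only the spread between these libraries. All 6 defining markers of CD8 T cells were well detected, with a summed level of 1569 to 1793 CPM with HCME-sEVs and 1834 to 2124 CPM with LME-sEVs. Cd4 was at 0 to 3 counts and Foxp3 at 0 to 1 count in a library. In the edgeR quasi-likelihood test, 1131 of 12623 genes (8.96%) had an FDR (the Benjamini-Hochberg adjusted p, taken over the whole set of tested genes) under 0.05, of which 473 (3.75%) were higher and 658 (5.21%) lower with LME-sEVs. Scaling by library size alone turned this split to 612 higher and 465 lower. The total fell to 723 without HCME-sEV library 2, to 391 without LME-sEV library 2, and to 458 without LME-sEV library 3. DEG, with an FDR under 0.05 and a log2 fold change beyond 1, numbered 162 (1.28%).

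With LME-sEVs, 3 of the 10 genes changed: Tet1 rose, and Uhrf1 and Eed fell. This is 1 of 10 higher and 2 of 10 lower, beside 3.75% and 5.21% of all tested genes. None of the 10 was a DEG, against 1.28% of all genes. The groups did not overlap for 6 of the 10 genes, against 20.3% of all tested genes. The median log2 fold change of the 10 genes was −0.03, and that of all tested genes was 0.01. In the following, fold changes are LME-sEVs over HCME-sEVs, errors of levels are SDs, and CPM are of 3′ ends, so a level is compared between groups and not between genes.

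**Figure D1:**
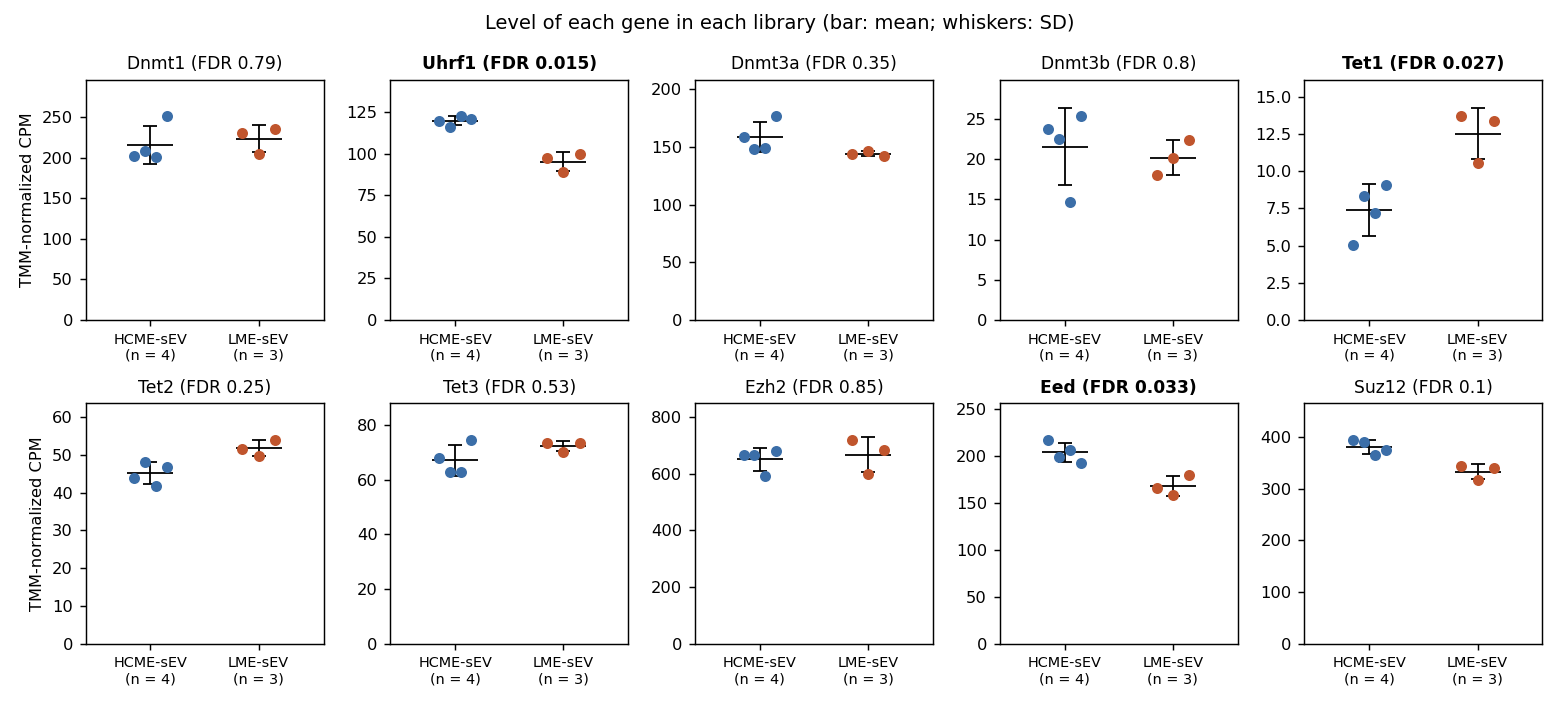
TMM-normalized CPM of the 10 genes (y axis, starting at 0 and scaled per gene) in the 4 HCME-sEV libraries (blue) and the 3 LME-sEV libraries (orange), with mean and SD. The points of the groups are fully apart for Uhrf1 and Eed, lower with LME-sEVs, and for Tet1, higher, while the groups overlapped for Dnmt1, Dnmt3b, Tet3, and Ezh2.

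Of the maintenance genes, Uhrf1 fell and Dnmt1 did not pass the test. Uhrf1, which recognizes hemimethylated DNA and brings DNMT1 to it, measured 119.6, 116.2, 122.6, and 120.9 CPM with HCME-sEVs (119.8 ± 2.70, n = 4) and 97.3, 88.9, and 99.9 CPM with LME-sEVs (95.4 ± 5.75, n = 3). The highest LME-sEV library lay below the lowest HCME-sEV library. Uhrf1 fell by 20.3%. The log2 fold change was −0.33 (SE 0.082, 95% interval −0.50 to −0.16), with an FDR of 0.0153 by edgeR. The call was lost without LME-sEV library 2 (edgeR FDR 0.109) and held without any other library and under all 8 other settings.

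Dnmt1, the maintenance methyltransferase itself, stood at 202.4, 208.1, 201.0, and 250.8 CPM with HCME-sEVs (216 ± 23.7, n = 4) and at 230.1, 204.9, and 235.4 CPM with LME-sEVs (223 ± 16.3, n = 3). HCME-sEV library 4 was higher than every other library, and the groups overlapped. The log2 fold change was 0.05 (SE 0.088, 95% interval −0.13 to 0.24; edgeR FDR 0.795), so a change larger than 0.24 in either direction lies outside the interval. Within each library, the log2 ratio of Dnmt1 to Uhrf1 was 0.76, 0.84, 0.71, and 1.05 with HCME-sEVs and 1.24, 1.20, and 1.23 with LME-sEVs. The groups did not overlap, and the ratio was 0.38 higher on average with LME-sEVs. By the two-sided exact permutation test over all 35 assignments of 3 of the 7 libraries to a group, whose smallest p is 0.0286, this difference had p = 0.0571 and an adjusted p of 0.114 over the 6 ratios compared, and thus did not pass.

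The start regions of these maintenance genes are shown because Dnmt1 and Uhrf1 are textbook genes of cycling cells, whose promoters commonly hold E2F motifs, and replication genes were measured in the same libraries. Each sequence runs from 250 bases before to 50 bases after a RefSeq transcript start on GRCm38.p6, in the direction of the gene. Capitals mark the E2F letters searched for on both strands (TTTCCCGC, TTTCGCGC, TTTGCCGC, or TTTGGCGC, or their reverse complements). The Uhrf1 sequence lies at chr17:56304063-56304362 on the + strand and holds 33 CpG, and the Dnmt1 sequence lies at chr9:20952574-20952873 on the − strand and also holds 33.
Uhrf1: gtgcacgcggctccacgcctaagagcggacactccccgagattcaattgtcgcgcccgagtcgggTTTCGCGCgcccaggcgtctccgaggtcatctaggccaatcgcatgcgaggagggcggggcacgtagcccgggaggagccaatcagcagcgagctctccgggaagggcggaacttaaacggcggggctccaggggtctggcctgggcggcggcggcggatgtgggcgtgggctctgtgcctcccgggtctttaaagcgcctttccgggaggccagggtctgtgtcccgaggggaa
Dnmt1: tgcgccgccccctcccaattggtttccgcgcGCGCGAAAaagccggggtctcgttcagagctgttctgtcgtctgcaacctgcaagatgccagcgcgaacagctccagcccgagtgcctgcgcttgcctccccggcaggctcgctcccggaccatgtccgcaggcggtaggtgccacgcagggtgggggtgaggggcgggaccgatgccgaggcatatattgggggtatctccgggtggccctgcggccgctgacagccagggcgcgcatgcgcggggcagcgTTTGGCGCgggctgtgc

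The Uhrf1 window held 1 match and the Dnmt1 window 2. Other annotated starts of the same genes, 1 for Uhrf1 and 2 for Dnmt1, had none. Over the 15 windows of the 10 genes, 4 held a match (Uhrf1, Dnmt1, Ezh2, and Suz12), against 744 of 32851 windows (2.26%) of all genes. Of those 4 genes, Uhrf1 fell, and Dnmt1, Ezh2, and Suz12 did not pass the test. A match of letters is a description of the sequence and not a site of binding. The windows of the 10 genes were rich in CpG, with a median of 30 against 7 over all windows.

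The de novo methyltransferases did not pass the test. Dnmt3a, which in T cells is known to silence naive and memory genes in effector cells, measured 158.5, 148.5, 149.1, and 176.3 CPM with HCME-sEVs (158 ± 13.0, n = 4) and 143.5, 146.5, and 142.2 CPM with LME-sEVs (144 ± 2.19, n = 3). All 3 LME-sEV libraries lay below all 4 HCME-sEV libraries, by a gap smaller than the SD of the HCME-sEV group. The log2 fold change was −0.14 (SE 0.082, 95% interval −0.31 to 0.04), with an FDR of 0.351 by edgeR. Dnmt3b, its paralog, is the less counted of the pair here, with 55 to 116 counts in a library. It measured 23.8, 22.5, 14.6, and 25.3 CPM with HCME-sEVs and 18.0, 20.2, and 22.4 CPM with LME-sEVs. The groups overlapped, HCME-sEV library 3 was the lowest of all, and the log2 fold change was −0.09 (SE 0.16, 95% interval −0.43 to 0.25; edgeR FDR 0.803). The log2 ratio of Dnmt1 to Dnmt3a was 0.19 higher with LME-sEVs, with p = 0.0857 (exact permutation test, adjusted p 0.129). Dnmt3l, a cofactor of germ cells without enzyme activity, was at 0 in all 7 libraries.

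All 3 TET genes had positive fold changes, and Tet1 alone passed the test. Tet1 measured 5.04, 8.33, 7.18, and 9.05 CPM with HCME-sEVs (7.40 ± 1.75, n = 4) and 13.7, 10.5, and 13.3 CPM with LME-sEVs (12.5 ± 1.73, n = 3). Every LME-sEV library was above every HCME-sEV library, although these levels rest on few molecules, 21, 33, 27, and 39 counts with HCME-sEVs and 51, 47, and 69 with LME-sEVs. The log2 fold change of 0.75 (SE 0.21, 95% interval 0.32 to 1.19) corresponds to a 1.68-fold higher level, with an FDR of 0.0274 by edgeR. The call was lost without HCME-sEV library 1 (edgeR FDR 0.0742), without LME-sEV library 1 (0.0850), without LME-sEV library 3 (0.125), and with the DESeq2 test (0.0564). The fold change itself stayed between 0.60 and 0.87 on the log2 scale when any 1 library was left out.

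Tet2, the TET gene best known in T cells and blood cancers, stood at 43.9, 48.2, 41.7, and 46.9 CPM with HCME-sEVs (45.2 ± 2.92, n = 4) and at 51.5, 49.7, and 53.9 CPM with LME-sEVs (51.7 ± 2.11, n = 3). The groups did not overlap, but the log2 fold change of 0.19 (SE 0.098, 95% interval −0.01 to 0.40) did not pass, with an FDR of 0.248 by edgeR. Tet3, the third enzyme of the family, was at 68.0, 62.9, 62.7, and 74.5 CPM with HCME-sEVs and at 73.5, 70.1, and 73.4 CPM with LME-sEVs. HCME-sEV library 4 was the highest of the 7 and the groups overlapped (log2 fold change 0.11, SE 0.093, 95% interval −0.08 to 0.30, edgeR FDR 0.534). The ratio of Tet2 to Tet3 moved by 0.08 log2 units between the groups, with p = 0.314 (exact permutation test, adjusted p 0.314).

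A start region of Tet1 is shown, as Tet1 had the largest fold change of the 10. This RefSeq start lies inside the gene as annotated in GENCODE, and the region at the gene's 5′ end at position 62908996 was not examined. It lies at chr10:62887275-62887574 on the − strand, holds 17 CpG, and has none of the E2F letters, so no base is in capitals.
Tet1: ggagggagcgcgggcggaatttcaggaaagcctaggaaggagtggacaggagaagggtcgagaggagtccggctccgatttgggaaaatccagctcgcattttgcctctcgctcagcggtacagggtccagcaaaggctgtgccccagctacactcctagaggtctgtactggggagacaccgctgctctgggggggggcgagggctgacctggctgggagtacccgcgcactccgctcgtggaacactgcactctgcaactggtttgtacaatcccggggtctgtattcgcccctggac

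Within PRC2, Eed fell, while Ezh2 and Suz12 did not pass the test. Ezh2, the catalytic subunit of dividing cells, measured 665.6, 665.8, 590.5, and 681.2 CPM with HCME-sEVs (651 ± 40.9, n = 4) and 718.1, 599.4, and 682.9 CPM with LME-sEVs (667 ± 61.0, n = 3). The LME-sEV libraries spanned almost the whole range, and the log2 fold change was 0.03 (SE 0.080, 95% interval −0.13 to 0.20; edgeR FDR 0.849). Eed, which binds the methylated histone tail and stimulates the enzyme, measured 217.1, 198.5, 206.8, and 193.0 CPM with HCME-sEVs (204 ± 10.5, n = 4) and 166.0, 158.1, and 180.1 CPM with LME-sEVs (168 ± 11.1, n = 3). The groups did not overlap, and Eed fell by 0.28 on the log2 scale (SE 0.080, 95% interval −0.44 to −0.11), with an FDR of 0.0332 by edgeR.

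The call of Eed depended on single libraries more than that of Uhrf1. By edgeR it was lost without HCME-sEV library 1 (FDR 0.0588), HCME-sEV library 2 (0.0668), LME-sEV library 1 (0.106), LME-sEV library 2 (0.176), or LME-sEV library 3 (0.0550). It was also lost with the upper quartile (0.0510), with library size alone (0.0746), and with no filter on low counts (0.0530), while the fold change stayed negative throughout. In GENCODE vM21 an exon of Eed overlaps one of E230029C05Rik on the opposite strand over 261 bases. That gene had 11 to 25 counts in a library against 619 to 932 for Eed, and the strand setting of the counting is not given in the sources used here.

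Suz12, the scaffold of the complex, stood at 394.5, 390.0, 366.1, and 374.7 CPM with HCME-sEVs (381 ± 13.2, n = 4) and at 343.5, 316.5, and 339.9 CPM with LME-sEVs (333 ± 14.7, n = 3). All 3 LME-sEV libraries were below all 4 HCME-sEV libraries. The log2 fold change of −0.19 (SE 0.073, 95% interval −0.35 to −0.04) had an unadjusted p of 0.0143 and an FDR of 0.105 by edgeR, and did not pass. Of the other core genes, Ezh1, the catalytic subunit of resting cells, averaged 21.2 ± 2.98 CPM with HCME-sEVs and 26.1 ± 2.36 CPM with LME-sEVs (log2 fold change 0.29, SE 0.14, edgeR FDR 0.211). The histone chaperones Rbbp4 and Rbbp7 had log2 fold changes of −0.02 (SE 0.082, edgeR FDR 0.922) and −0.03 (SE 0.070, edgeR FDR 0.866).

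Ratios within a library compare a pair of subunits without any scaling between libraries. The log2 ratio of Ezh2 to Suz12 was 0.75, 0.77, 0.69, and 0.86 with HCME-sEVs and 1.06, 0.92, and 1.01 with LME-sEVs, without overlap. It was 0.23 higher with LME-sEVs, at the smallest p that the exact permutation test can give (0.0286), and its adjusted p over the 6 ratios was 0.114. The log2 ratio of Ezh2 to Eed was 1.61, 1.74, 1.51, and 1.82 with HCME-sEVs and 2.11, 1.92, and 1.92 with LME-sEVs, again without overlap (difference 0.31, exact permutation p = 0.0571, adjusted p 0.114). The ratio of Ezh2 to Ezh1 was 0.26 lower on the log2 scale with LME-sEVs, with groups that overlapped (exact permutation p = 0.200, adjusted p 0.240). None of the 6 ratios passed after adjustment.

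**Figure D2:**
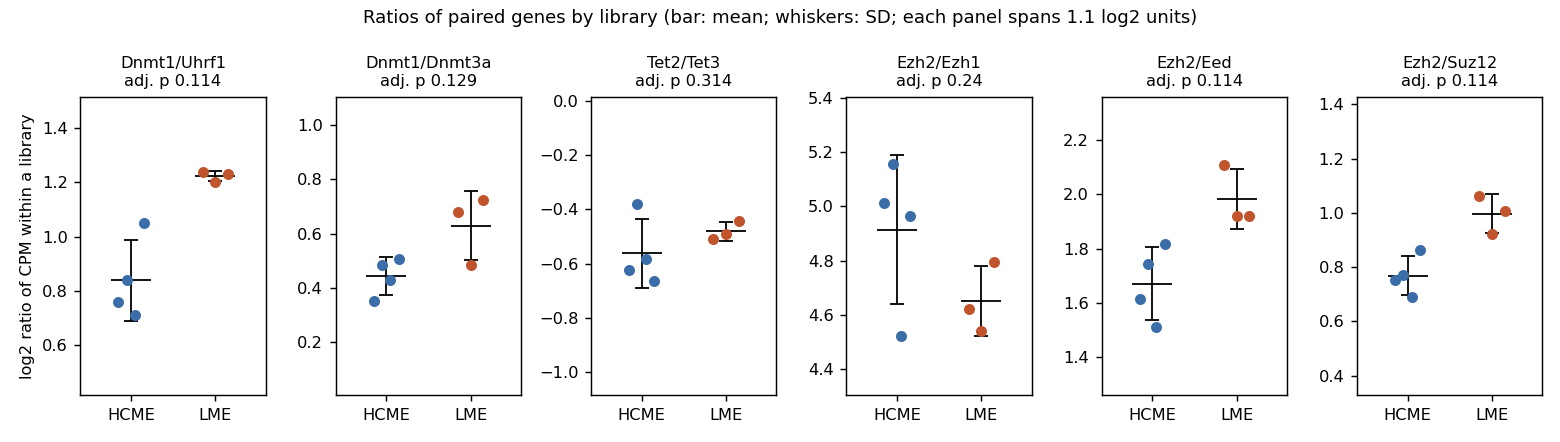
Log2 ratio of the CPM of paired genes within each library (y axis, same span in each panel; prior count of 2) for HCME-sEV (blue, 4 libraries) and LME-sEV (orange, 3 libraries), with mean and SD. The groups are apart for Dnmt1/Uhrf1, Ezh2/Eed, and Ezh2/Suz12, each with an adjusted exact permutation p of 0.114.

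The start region of Eed, the PRC2 gene that fell, lies at chr7:89980927-89981226 on the − strand. It holds 17 CpG and none of the E2F letters.
Eed: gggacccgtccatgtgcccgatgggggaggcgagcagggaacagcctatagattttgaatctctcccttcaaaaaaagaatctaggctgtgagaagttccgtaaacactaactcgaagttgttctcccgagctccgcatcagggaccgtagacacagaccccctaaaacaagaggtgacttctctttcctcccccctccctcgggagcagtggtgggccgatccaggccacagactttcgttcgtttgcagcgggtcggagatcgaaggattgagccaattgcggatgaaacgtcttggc

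**Figure D3:**
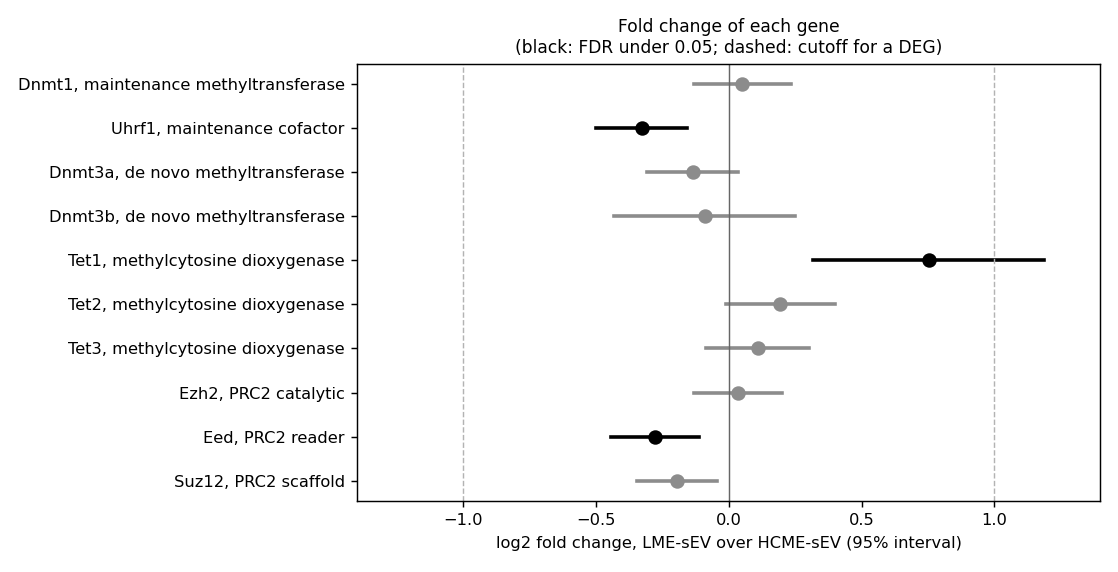
Log2 fold change of each gene, LME-sEV over HCME-sEV (x axis), with its 95% interval from the edgeR fit. Uhrf1, Tet1, and Eed, in black, had an FDR under 0.05, and no estimate lay beyond the dashed lines at a log2 fold change of 1 in either direction.

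In GENCODE vM21 on GRCm38 the 3 genes that changed lie at chr17:56303321-56323486 (Uhrf1, + strand), chr10:62804570-62908996 (Tet1, − strand), and chr7:89954654-89980983 (Eed, − strand). All 10 genes are annotated as protein coding, and none had a near-identical 3′ end in another gene. For each gene that changed, the tested genes with the most similar profile over the 7 libraries were found by the root mean square difference of centred log2 CPM. Nearest to Uhrf1 were Nop14 (0.023), Hsp90b1 (0.043), and L3mbtl2 (0.047), out of 7848 genes whose mean count was 50 or more. Among the 3 nearest to Eed were Agps (0.033) and Pop7 (0.035). Nearest to Tet1 were Asap1 (0.14), Sema6d (0.16), and Dclk1 (0.17), a wider distance than for the other two.

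The DNA methyltransferases were then counted together with genes that target DNA methylation, a wider list that again holds Uhrf1. Of 12 tested genes of the list, 2 fell, Uhrf1 and Hells, and none rose, with a median log2 fold change of −0.10. Over all tested genes, to be set beside this and each list that follows, 5.21% fell and 3.75% rose, with a median of 0.01. Hells, a remodeler that opens packed DNA for methylation, averaged 364 ± 21.9 CPM with HCME-sEVs and 307 ± 7.96 CPM with LME-sEVs (log2 fold change −0.25, SE 0.075, edgeR FDR 0.0447). Its partner Cdca7 had a log2 fold change of −0.25 with an edgeR FDR of 0.0961, and the UHRF1 paralog Uhrf2 had 0.17 with an FDR of 0.294. The call of Hells was lost without HCME-sEV library 1 or 2 and without any of the 3 LME-sEV libraries. It was also lost with the upper quartile, with library size alone, and with no filter on low counts, which left 1 gene of the list lower. Without LME-sEV library 2 the number that fell was 0.

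Around the TET enzymes, changes went in both directions: 2 of 13 tested genes rose (Tet1 and Ogt), 2 fell (Gadd45g and Apex1), and the median was 0.11. The shares over all tested genes were 3.75% higher and 5.21% lower. Gadd45g, a stress gene also known for links to demethylation by repair, was the only DEG of the list. It stood at 36.5, 28.3, 22.3, and 21.3 CPM with HCME-sEVs and at 11.0, 10.5, and 8.50 CPM with LME-sEVs (log2 fold change −1.45, SE 0.19, edgeR FDR 1.47e-04). Apex1, the endonuclease of base excision repair, fell by 0.28 on the log2 scale (SE 0.087, edgeR FDR 0.0456). Ogt, the glycosyltransferase that binds TET proteins, rose by 0.30 (SE 0.094, edgeR FDR 0.0488), and both lie close to the threshold. Tdg, the glycosylase that removes oxidized methylcytosine, had a log2 fold change of −0.10 with an edgeR FDR of 0.785. The number that rose was 0 without LME-sEV library 1 or 3 and with the DESeq2 test, and 1 without HCME-sEV library 1, 3, or 4 or LME-sEV library 2. The number that fell was 1 whenever a library other than HCME-sEV library 3 was left out, and 1 with the upper quartile, library size alone, no filter on low counts, or the DESeq2 test.

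Among 7 readers of methylated CpG, Zbtb38 rose (47.3 ± 5.19 to 64.3 ± 4.29 CPM, log2 fold change 0.44, SE 0.10, edgeR FDR 0.0104), and the other 6 did not pass. The call of Zbtb38 was lost without LME-sEV library 3. Among 16 enzymes that make or regulate methyl donor or oxoglutarate, the cofactors of the methyltransferases and of the TET enzymes, 1 fell and none rose. This was Mat2a, which makes S-adenosylmethionine, the methyl donor of DNMT1 and EZH2. It measured 605.8, 506.4, 457.3, and 485.6 CPM with HCME-sEVs and 410.5, 357.3, and 355.0 CPM with LME-sEVs (log2 fold change −0.46, SE 0.092, edgeR FDR 0.00373). The groups of Mat2a did not overlap, and the count of 1 lower gene of this list held without any 1 library, while 1 gene of the list passed as higher without HCME-sEV library 1 or LME-sEV library 1.

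The wider polycomb machinery did not pass by edgeR. Of 8 accessory subunits of PRC2, 26 genes of PRC1, and 5 H3K27 demethylases or deubiquitinase subunits, 0 had an FDR under 0.05, with medians of −0.04, 0.08, and 0.07. DESeq2 and limma-voom also called 0 in each of these lists. At an unadjusted p under 0.05 by edgeR there were 0, 6, and 1 genes, beside 2864 of all 12623 tested genes. Bmi1, a ring finger subunit of PRC1, had a log2 fold change of −0.31 (edgeR FDR 0.0853). Of its enzymatic partners, Ring1 had 0.46 (edgeR FDR 0.117) at 36 to 96 counts in a library, and Rnf2 had −0.02 (edgeR FDR 0.927) at 253 to 352 counts. With the upper quartile or library size alone, 1 demethylase or deubiquitinase gene passed as higher, and without HCME-sEV library 3 or 4, 1 PRC1 gene did.

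**Figure D4:**
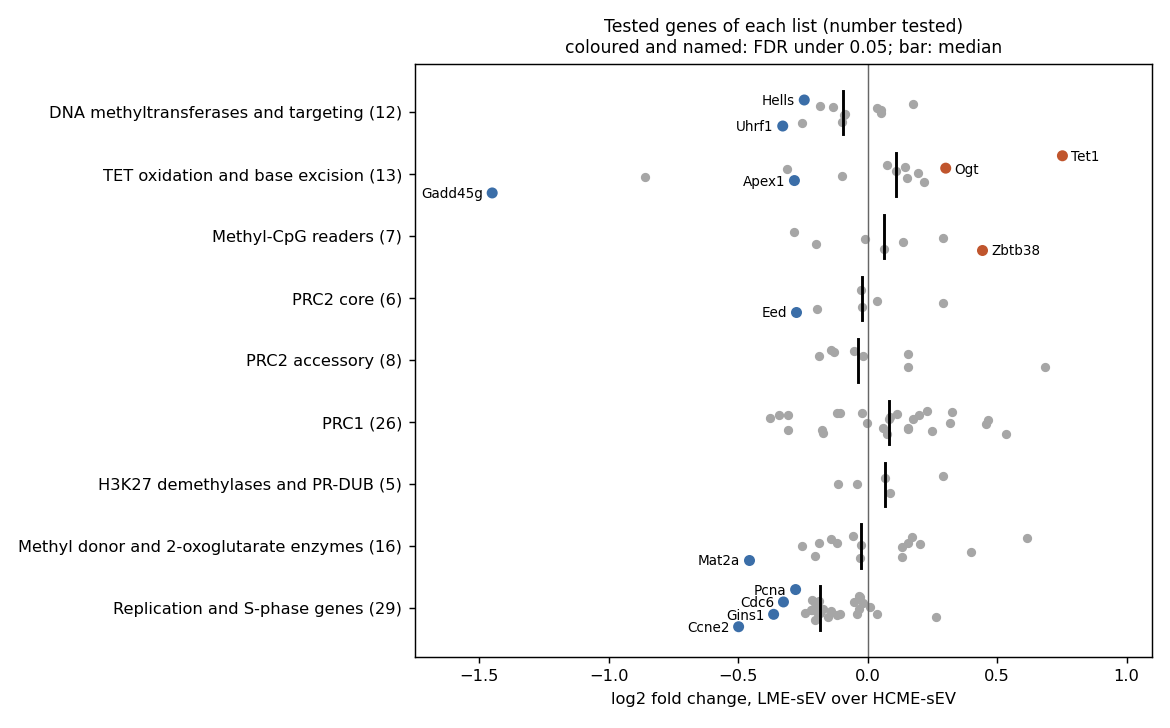
Log2 fold change, LME-sEV over HCME-sEV (x axis), of every tested gene in 9 lists, with the number tested in brackets, genes with an FDR under 0.05 in colour, and a bar at the median. Apart from Gadd45g at −1.45, the coloured genes lie within 1 log2 unit of 0, and the replication list has its median at −0.19.

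Some genes of DNA replication fell in the same libraries. Of 29 tested genes of replication and S phase, 4 fell (Ccne2, Pcna, Gins1, and Cdc6) and none rose, beside 5.21% and 3.75% of all tested genes. A negative fold change was seen in 26 of the 29, with a median of −0.19 against 0.01 over all tested genes. Their summed level was 4545 to 4686 CPM with HCME-sEVs and 4069 to 4280 CPM with LME-sEVs. Pcna, the replication clamp, averaged 367 ± 22.7 and 302 ± 4.69 CPM (log2 fold change −0.28, SE 0.075, edgeR FDR 0.0234). The number that fell ranged from 0 without LME-sEV library 3 to 4, with 1 without LME-sEV library 2 and 2 without HCME-sEV library 2, HCME-sEV library 4, or LME-sEV library 1. It was 2 with the upper quartile, library size alone, or the DESeq2 test, and 3 with either other filter on low counts, and 1 gene of the list passed as higher without HCME-sEV library 4. Of 20 mitotic genes, 1 fell (Cdc20, log2 fold change −0.32, edgeR FDR 0.0144), with a median of −0.12, and this count was 0 without LME-sEV library 1 or 3 and 2 without HCME-sEV library 1 or 3 or with the DESeq2 test. The part of replication in the lower Uhrf1, Hells, and Eed was not tested. In bulk libraries fewer cycling cells and less RNA per cell cannot be told apart.

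Naive and memory genes that are known to be repressed in effector cells were tested in the same fit. Whether DNMT3A or PRC2 represses each of them in these cells was not tested. Of 12 naive and memory genes, 4 rose and 1 fell, beside 3.75% and 5.21% of all tested genes, with a median of 0.29. Bcl6, a repressor of effector differentiation, averaged 8.72 ± 2.68 CPM with HCME-sEVs and 20.1 ± 2.11 CPM with LME-sEVs (log2 fold change 1.22, SE 0.19, edgeR FDR 6.62e-04). Il7r, the receptor of a survival cytokine, rose by 0.52, Tcf7, the factor of stem-like T cells, by 0.50, and S1pr1, an exit receptor of lymphoid organs, by 0.63 on the log2 scale, with edgeR FDRs of 0.00125, 0.00493, and 0.0124. The genes of the list that passed thus went in both directions. The number that rose was 3 without LME-sEV library 2 or 3, 6 without HCME-sEV library 4, and 7 without HCME-sEV library 3. It was 5 with the upper quartile, 6 with library size alone, and 7 with no filter on low counts, and the number that fell was 0 without LME-sEV library 1 or 3.

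Genes known as targets of promoter methylation or of polycomb were mostly at or near the floor in both groups. Whether these marks hold them silent in these cells was not tested. Of 14 germline genes, 10 never exceeded 3 counts in a library, and 6 of them were at 0 in all 7. The 2 germline genes with enough counts, Tdrkh and Brdt, had edgeR FDRs of 0.883 and 0.627. Of 20 developmental genes known as polycomb targets, 15 never exceeded 3 counts and 8 were at 0 throughout. The 4 that were tested (Cdkn2a, Hoxb4, Pax6, and Lhx2) did not pass, and their log2 fold changes lay between −0.06 and 0.26. At this depth, levels under 0.580 to 0.804 CPM would not be seen.

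Some markers of other cells rose with LME-sEVs as well. The 6 CD8 markers all had positive fold changes, and Cd3e and Cd3g passed (log2 fold changes 0.35 and 0.49). Of 7 tested basophil and mast-cell markers 3 rose (Prg2, Prss34, and Mcpt8), with a summed level of 8.88 to 37.4 CPM over the list with HCME-sEVs and 32.1 to 51.1 CPM with LME-sEVs. Of 6 tested erythroid and platelet markers 3 rose (Ppbp, Pf4, and Hba-a1), with summed levels of 72.3 to 179 and 154 to 199 CPM. The summed myeloid markers were at 2.53 to 5.04 and 6.57 to 8.04 CPM, and the 1 myeloid marker with enough counts did not pass. B-cell markers gave 10.4 to 11.8 and 10.2 to 12.3 CPM, and none of the 3 tested passed. Of the genes listed as NK markers only Eomes, at 158 to 198 CPM, was tested, and it did not pass. The other genes of that list had too few counts, at most 12 in a library, so Eomes is not read as a measure of NK cells. A contribution of NK cells was not tested. Of the 4 CD4 T-cell markers only Zbtb7b had enough counts to be tested, and it rose (log2 fold change 0.87, edgeR FDR 0.0241). The rest of that list stayed low in both groups, with Cd40lg at 3 to 5 counts in a library, Cd4 at 0 to 3, and Foxp3 at 0 to 1. Xist rose by 0.30 on the log2 scale (edgeR FDR 0.0107), and 4 Y-linked genes had 0 to 2 counts in a library. Whether such cells contributed to the levels of the 10 enzymes was not tested.

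**Figure D5:**
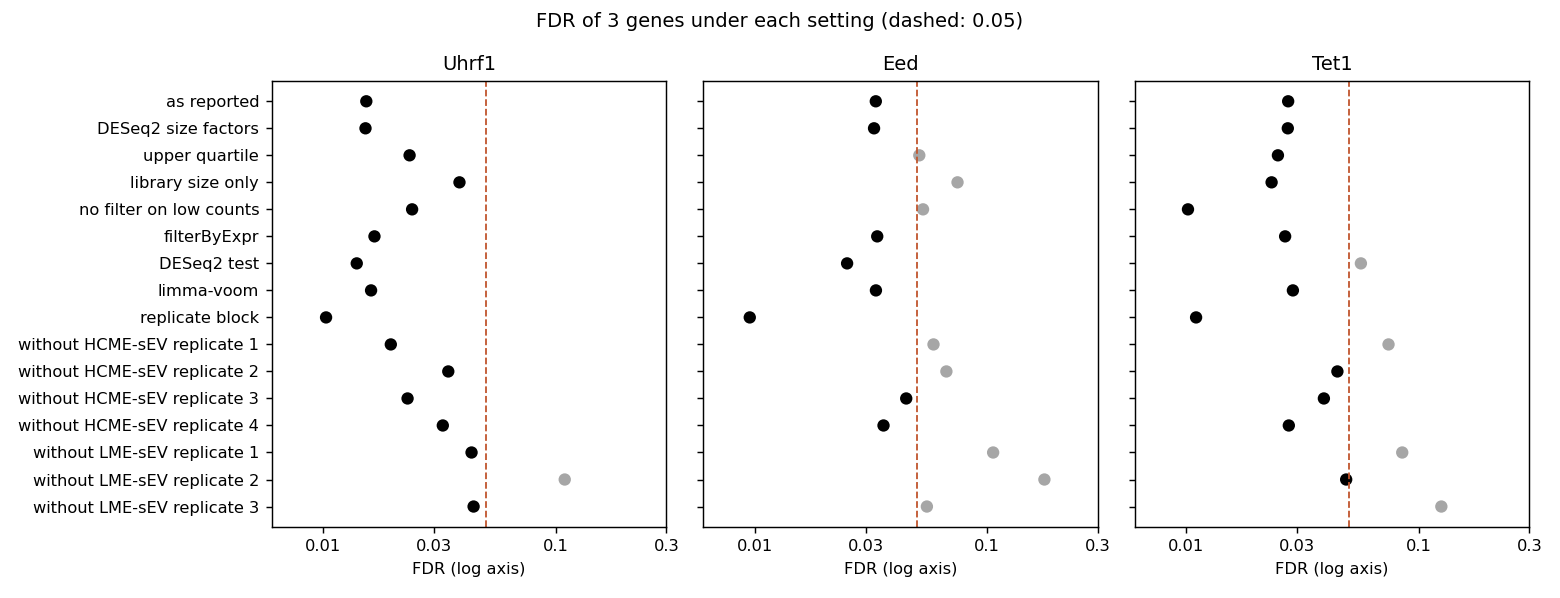
FDR of Uhrf1, Eed, and Tet1 (x axis, log scale) under each way of processing the counts and without each library (y axis), with black points under the dashed line at 0.05. Uhrf1 lies under 0.05 except without LME-sEV library 2 (0.109), whereas Eed and Tet1 each cross the line under several settings.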

How the data were processed

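CD8+ T cells were profiled by 3′ RNA-seq with unique molecular identifiers (UMIs) in 7 libraries, grouped by the labels as 4 HCME-sEV and 3 LME-sEV. The authors deposited whole-number counts per gene symbol, without normalization or filter. Per the labels and methods, reads were trimmed with cutadapt 2.10, mapped to GRCm38 with STAR 2.5.3a, collapsed by UMI with UMI-tools 1.0.0, and counted with featureCounts of Subread 2.0.0. The annotation release and strand setting are not given in the sources used here. UMI collapse removes PCR copies, and 3′ counting ties a level to the annotated gene end. The floor of 3 counts covers counting error only.

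Genes averaging 5 or more counts per library were scaled by TMM and tested with glmQLFit and glmQLFTest of edgeR 4.0.16 in R 4.3.3, with no covariate. P-values were adjusted over all 12623 tested genes. Within-library ratios used a prior count of 2 and a two-sided exact permutation test. Gene lists are described by counts and medians. Alternatives were DESeq2 size factors, the upper quartile, library size alone, 2 other filters, DESeq2 1.42.0, limma-voom (limma 3.58.1), the replicate number as a block, and leaving out each library. Steps were tested on simulated data. For near-identical 3′ ends, the last 300 bases of transcripts were compared by blast 2.17.0, at 95% identity over at least 200 bases.

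All 10 genes are named, with genes of each list with an FDR under 0.05 (at most the 5 with the smallest), their complex partners, and the 3 nearest profiles of each gene that changed. Genes named beyond this (Cdca7, Uhrf2, Tdg, Bmi1, Ring1, Rnf2, Cd40lg, Dnmt3l, and the tested silenced genes) were chosen after their values were seen. The 10 genes and all lists were chosen with earlier results of these data known. Of the genes these rules name, 2 are not reported here.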

Additional observations from a re-analysis of the deposited data

Results flagged for a closer look

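In HCME-sEV library 4, Dnmt1 stood at 250.8 CPM against 201.0 to 208.1 CPM in the other 3 libraries of the group. The gap to the nearest library was 0.857 of the range of the group, above Dixon's critical value for a group of this size. This was 1 of 16 groups of values examined, and chance flags about 1 in 20. Without this library the log2 fold change of Dnmt1 was the highest of its leave-one-out values, 0.13.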

How the results depend on the processing

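Leaving out each library in turn gave 391 to 1305 genes with an FDR under 0.05, 168 to 544 higher and 223 to 761 lower, and 83 to 184 DEG. Of the 10 enzymes, 1 to 3 passed, 0 to 1 higher and 0 to 2 lower. Differences of log2 ratios without single libraries were 0.34 to 0.45 for Dnmt1/Uhrf1, 0.14 to 0.26 for Dnmt1/Dnmt3a, 0.047 to 0.14 for Tet2/Tet3, −0.39 to −0.18 for Ezh2/Ezh1, 0.25 to 0.36 for Ezh2/Eed, and 0.19 to 0.27 for Ezh2/Suz12. With the upper quartile, library size alone, or no filter on low counts, 1 of the 10 passed as lower, since Eed no longer did. The DESeq2 test gave 105 DEG and 0 of the 10 higher, since Tet1 no longer passed. The sign turned for Dnmt3b under the replicate block (0.0096), and for Ezh2 without HCME-sEV library 3 (−0.0092) or LME-sEV library 1 (−0.015), within a leave-one-out range of −0.015 to 0.11. All other fold changes of the 10 enzymes kept their direction under each alternative run. The causes were not tested.

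Replicate numbers 1 to 3 are shared by the groups, but the labels do not tie them to animals or days. Deviations from the group means of same-numbered libraries correlated at 0.072, 0.155, and 0.027 across genes, and not every library correlated best with its own number, so the samples were taken to share only a number. With the replicate block, 1454 genes passed, 594 higher and 860 lower, and the same 3 of the 10 enzymes. HCME-sEV library 4 shares its number with no LME-sEV library, so the blocked difference between groups rests on the other libraries. Leaving out that library without the block gave 918 genes. The block also gave 1 higher gene each among the PRC1, the H3K27 demethylase and deubiquitinase, and the replication genes, where there was 0 without it, 1 in place of 2 among the TET and base excision genes, 7 in place of 4 among the naive and memory genes, and 2 lower mitotic genes in place of 1. Depth limits Tet1 most, with 21 to 69 counts in a library.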
